A study of Mus musculus with 6 samples.

Results

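Resident peritoneal macrophages are identified by genes that most macrophages share together with genes that mark those of the peritoneal cavity, and 5 transcripts of such genes were followed here through foam cell formation: *Gata6* (ENSMUST00000047762_at), *Csf1r* (ENSMUST00000025523_at), *Adgre1* (ENSMUST00000004850_at), *Adgre4* (ENSMUST00000025004_at) and *Icam2* (ENSMUST00000001055_at). They are 5 of the 81690 Ensembl transcripts in the deposited table, and all 5 were found there by identifier. The genes were chosen by their known role in these cells and on an earlier reading of the oxLDL response in the same arrays, which already included the value of *Adgre4*. Their differences between oxLDL and vehicle are therefore given as a description. The fit across all transcripts includes them, but no p-value is given for them and its calls are not evidence about them. The pairing of each identifier with its gene was taken from the list that defined the set, because none of the 81690 identifiers occurs in the RefSeq gene table.

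GATA6 is the transcription factor that sets the identity of the large resident macrophages of the peritoneal cavity, where it is induced by retinoic acid from the surrounding tissue. CSF1R is the receptor for the growth factors CSF1 and IL-34, on which the survival of most tissue macrophages depends. ADGRE1 (also EMR1) and ADGRE4 (also EMR4 or FIRE) are adhesion G protein-coupled receptors of the EGF-TM7 family, and ADGRE1 is the surface antigen most used to identify mouse macrophages. ICAM2 (CD102) is an adhesion molecule of the immunoglobulin superfamily that binds the integrin LFA-1, and it is used with ADGRE1 to gate large peritoneal macrophages.

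The cells came from C57BL/6J mice, with no genetic change named in the labels, which were female and 8 to 12 weeks old. In each of 3 replicate experiments the peritoneal cells of several mice were pooled and plated in 2 wells, where the cells that adhered were kept. For 24 h one well received 25 µg/mL of copper-oxidized human LDL (oxLDL) and the other received the PBS vehicle. The 6 RNA samples were hybridized to 6 arrays, 3 vehicle and 3 oxLDL, and an oxLDL array and a vehicle array of the same number share a pool of cells. Cells were purified by adherence alone, without a sort, and values were measured on the bulk RNA of a well, so fewer cells of a type and less RNA per cell cannot be told apart. Each value below is the deposited PLIER summary of a transcript's probes on the log2 scale, and the number of arrays, 3 per group, limits its precision. The transcripts of the pan-macrophage genes *Csf1r* and *Adgre1* lay between percentiles 99.7 and 99.9 of all transcripts on the vehicle arrays. Of the genes tied to the peritoneal cells, *Gata6* lay between percentiles 86.0 and 91.0 and *Icam2* between percentiles 46.0 and 52.2, near the middle of the array. A percentile here places a value on its array and does not compare the abundance of genes, since each transcript has its own probes. Markers of B cells, T cells, mast cells and other cells of the peritoneal cavity were not analysed here, because the identifiers other than those of the 5 genes were not paired with names here.

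Of the 5 transcripts, *Adgre4* had the largest difference between the groups, 24.9-fold lower with oxLDL in the values as deposited and 47.1-fold lower after the 1st percentile of each array was subtracted as background. Its oxLDL values lay near the low end of the arrays, so the size of this difference is uncertain. *Csf1r* and *Adgre1* were 2.30-fold and 2.31-fold lower. The difference of *Gata6*, oxLDL minus vehicle, was -0.29 (log2) with groups that overlapped, and that of *Icam2* was -0.02. Of the 5, 4 had a mean over the 6 arrays above the median of all transcripts (8.74) and were among the 40845 tested with limma. *Icam2*, with a mean of 8.70, was just below it and was not tested. *Adgre4*, *Csf1r* and *Adgre1* passed, in the lower direction, the study's thresholds of a 2-fold change and a q-value under 0.05, as did 2.45% of all tested transcripts. The study also required detection above background and a RefSeq identifier. Here the filter at the median took their place, so the share is not on the study's full criteria. On the same 3 transcripts every oxLDL array was below every vehicle array, as it was for 32.5% of all tested transcripts. Since the genes were chosen with this contrast in view, nothing is read from these shares.

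**Figure D1:**
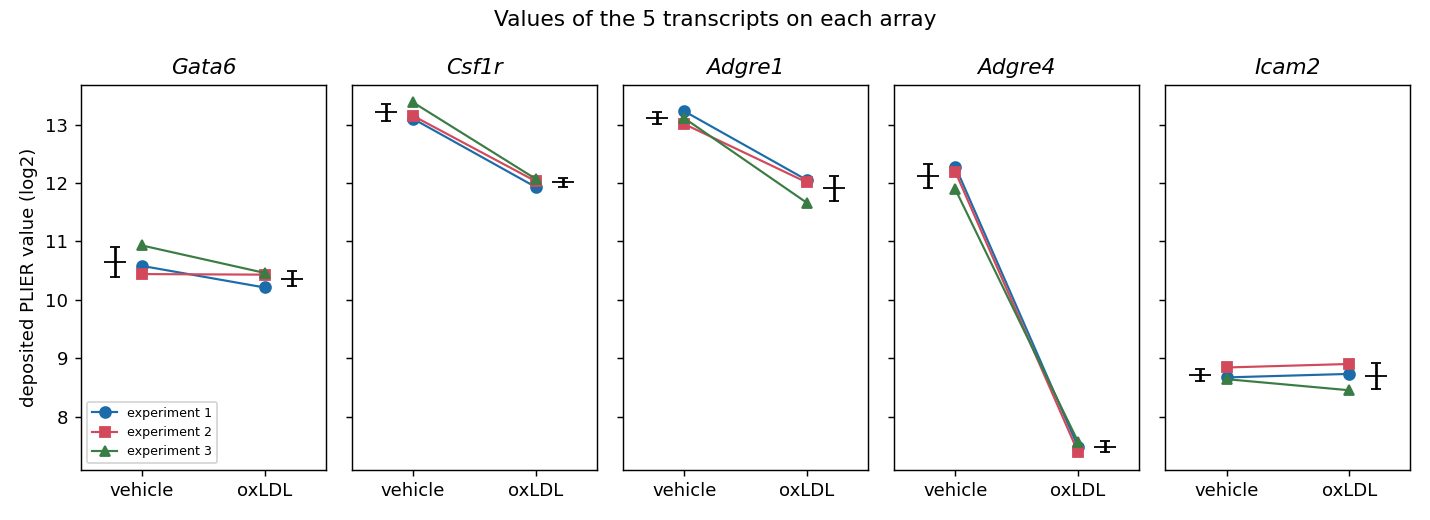
Deposited PLIER value (log2, vertical axis) of each of the 5 transcripts on the vehicle and oxLDL arrays, with a line for each replicate experiment and, beside the points, the group mean with its standard deviation (n = 3). The lines of Adgre4 drop from about 12 to below 8, those of Csf1r and Adgre1 drop less, to between 11.66 and 12.07, and those of Gata6 and Icam2 stay within 0.5 of their start.

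The sequence at the start of *Adgre4*, the member with the largest difference, is shown here. It is taken from the RefSeq promoter table (build GRCm38.p6, plus strand), which holds only this 1 of the 5 genes, and the start in RefSeq may differ from that of the Ensembl transcript on the array. Capitals mark matches to the motifs searched, and positions count from the start, with no position 0. The first line covers chr17:55749734-55749984, from base -250 to base 1, and the second covers chr17:55750004-55750033, from base 21 to base 50.

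Adgre4, bases -250 to 1: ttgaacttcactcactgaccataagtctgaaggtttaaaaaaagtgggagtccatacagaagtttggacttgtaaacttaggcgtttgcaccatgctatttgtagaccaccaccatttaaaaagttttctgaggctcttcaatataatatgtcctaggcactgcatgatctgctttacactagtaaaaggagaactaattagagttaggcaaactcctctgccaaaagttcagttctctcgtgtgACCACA

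Adgre4, bases 21 to 50: gaacaAGATAAgcagtggtgcacTTCCTCc

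The motifs were searched on both strands of the 300 bases, and they do not overlap in this window. A GATA motif (AGATAA) began at base 26, and 11.2% of the 32851 promoters in the table hold it. A PU.1 motif (GAGGAA, read here on the minus strand) began at base 44, and 28.3% of promoters hold it. A RUNX motif (TGTGGT, on the minus strand) began at base -5, and 16.8% hold it. The GATA motif with a T first (TGATAA, in 9.05% of promoters) and the AP-1 motif (TGANTCA, in 7.81%) were not among the letters of this window. These matches describe the sequence and were not tested as binding sites.

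The transcript of *Gata6*, the factor that defines the peritoneal identity, had values of 10.58, 10.44 and 10.93 (log2) on vehicle arrays 1, 2 and 3. On the oxLDL arrays it had 10.21, 10.43 and 10.46. The groups overlapped, because vehicle array 2 was below oxLDL array 3, and the highest value of the 6 was that of vehicle array 3. The mean was 10.65 ± 0.25 over the vehicle arrays and 10.36 ± 0.14 over the oxLDL arrays (SD, n = 3 each). Within the experiments the difference was -0.37, -0.02 and -0.47, so the oxLDL value was lower in 3 of 3 pairs but by almost nothing in experiment 2. The mean difference of -0.29 (standard error 0.14 over the 3 pairs) left 82.0% of the vehicle level. Among the 8169 transcripts with means from 10.02 to 10.69 the median difference was -0.14, with -0.10, -0.04 and -0.28 in experiments 1, 2 and 3, and the difference of *Gata6* less that median was -0.15. Of the tested transcripts, 25.5% were lower with oxLDL by at least as much. Without vehicle array 3 the difference of *Gata6* was -0.15, and after quantile normalization of the deposited values it was -0.14, with a positive difference of 0.03 in experiment 2.

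The receptor *Csf1r* had values of 13.10, 13.15 and 13.38 on the vehicle arrays and 11.93, 12.03 and 12.07 on the oxLDL arrays. All oxLDL arrays were below all vehicle arrays, with a gap of 1.03 between the nearest of them. The means were 13.21 ± 0.15 with vehicle and 12.01 ± 0.07 with oxLDL (SD, n = 3 each). The difference was -1.17, -1.13 and -1.31 in the 3 experiments, with a mean of -1.20 and a standard deviation of 0.10, the smallest of the 5 transcripts. The oxLDL level was 43.5% of the vehicle level. With the shift of each array removed, the experiments lay closer together still. The differences were then -1.12, -1.09 and -1.14 after quantile normalization, and -1.14, -1.12 and -1.15 after median centring.

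*Adgre1*, the gene of the common macrophage surface marker, had values of 13.23, 13.01 and 13.11 on the vehicle arrays. On the oxLDL arrays it had 12.05, 12.01 and 11.66. The groups did not overlap, with a gap of 0.95, and oxLDL array 3 was the lowest of the 6. The means were 13.12 ± 0.11 and 11.91 ± 0.21 (SD, n = 3 each), and the differences within the experiments were -1.17, -0.997 and -1.45. Their mean of -1.21 had a standard deviation of 0.23, and 43.3% of the vehicle level was left. The transcripts of *Adgre1* and *Csf1r* thus differed between the groups by like amounts. The difference of *Adgre1* minus that of *Csf1r* was -0.01, 0.13 and -0.14 in the 3 experiments, with a mean of -0.005 and a standard deviation of 0.13. Both transcripts stayed bright, between percentiles 97.3 and 98.5 of all transcripts on the oxLDL arrays. The median difference of the brightest 8169 transcripts, to which both belong, was -0.10, and less that median the differences were -1.11 (*Adgre1*) and -1.10 (*Csf1r*). Of the tested transcripts, 1.58% were lower with oxLDL by at least as much as *Adgre1*, and 1.59% by at least as much as *Csf1r*.

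*Adgre4*, of the same receptor family as *Adgre1*, went from bright to dim. Its values were 12.28, 12.19 and 11.89 on the vehicle arrays and 7.48, 7.39 and 7.57 on the oxLDL arrays. The nearest arrays of the groups were 4.32 apart, and the spread within a group was at most 0.39. Within the experiments the difference was -4.80, -4.80 and -4.32, with a standard deviation of 0.28 and a standard error of the mean of 0.16. As deposited, the oxLDL level was 4.01% of the vehicle level. The transcript moved from between percentiles 97.4 and 98.8 of the vehicle arrays to between percentiles 9.15 and 13.0 of the oxLDL arrays. The 5th percentile of the oxLDL arrays lay between 7.14 and 7.19, so that little range was left below its value, and its distance from background there was not assessed. The authors did not subtract background. When the 1st percentile of each array was subtracted on the linear scale, with an offset of 16, the difference became -5.56, a 47.1-fold lower level, while those of *Adgre1* and *Csf1r* became -1.23 and -1.22. In the deposited values, the difference of *Adgre4* minus that of *Adgre1* was -3.63, -3.80 and -2.87 (log2) in the 3 experiments. With background subtracted the 2 genes lay further apart, so the size of this distance is uncertain too.

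The adhesion molecule *Icam2* had values of 8.67, 8.84 and 8.64 on the vehicle arrays and 8.73, 8.90 and 8.45 on the oxLDL arrays. The groups overlapped in full, with both the highest and the lowest value on an oxLDL array. The differences of 0.06, 0.06 and -0.19 had a mean of -0.02 and a standard deviation of 0.15, so the direction was not the same in the 3 experiments. The sign of the mean depended on the scaling, at 0.03 after quantile normalization and 0.04 after median centring. The transcript lay between percentiles 43.8 and 54.2 on the 6 arrays, and its distance from background was not assessed. For the group of 8169 transcripts with means from 8.41 to 8.74, the median difference was 0.001.

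**Figure D2:**
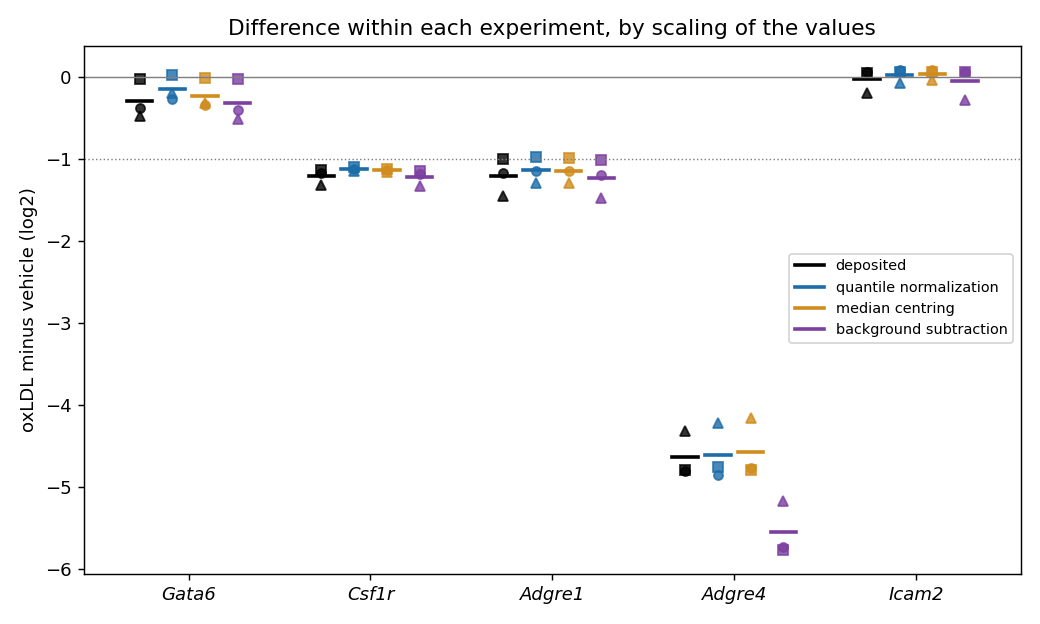
Difference of oxLDL minus vehicle (log2, vertical axis) of each transcript within experiments 1 (circle), 2 (square) and 3 (triangle), for the deposited values and under 3 other scalings, with a bar at the mean; the dotted line is a 2-fold lower level. Scaling moved Adgre4 from -4.64 to -5.56 with background subtraction and left Csf1r and Adgre1 between -1.23 and -1.12.

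In the deposited values, *Gata6* and *Csf1r* deviated from their group means in the same direction on each of the 6 arrays. The 5 transcripts as a whole did not. This pair was singled out after the values were seen, and its likeness was not tested. On vehicle array 3, the *Gata6* value was 0.28 above its group mean and the *Csf1r* value 0.17 above, whereas the deviation of *Adgre4* was -0.23. The median deviation on that array was 0.07 among transcripts of the brightness of *Gata6*. On oxLDL array 3, *Adgre1* deviated by -0.25 and *Icam2* by -0.24, against 0.10 for *Gata6*, 0.06 for *Csf1r* and 0.09 for *Adgre4*. For the transcripts of like brightness the median deviation was -0.06 (*Adgre1*) and -0.05 (*Icam2*). The shared direction of *Gata6* and *Csf1r* depended on the scaling. After median centring, oxLDL array 2 was above the group mean for *Gata6* (10.42 against 10.41) and below it for *Csf1r* (12.03 against 12.05).

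**Figure D3:**
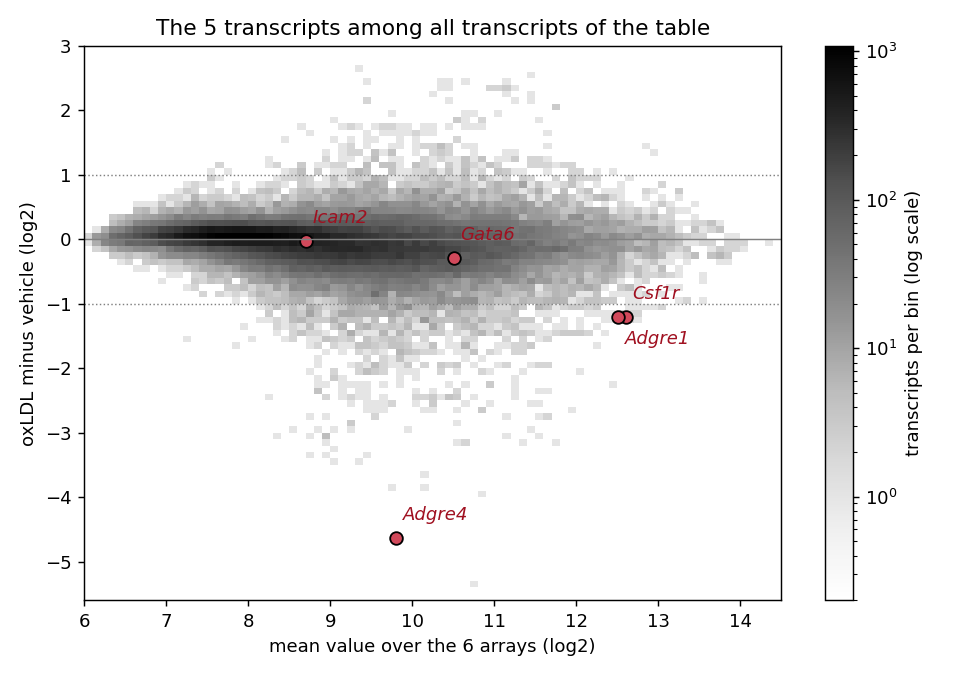
Difference of oxLDL minus vehicle (log2, vertical axis) against the mean over the 6 arrays (log2, horizontal axis) for all 81690 transcripts, shaded by the number per bin on a log scale, with the 5 transcripts as red points and dotted lines at a 2-fold change. Adgre4 lies apart at -4.64, Csf1r and Adgre1 lie below the lower line at -1.20 and -1.21, and Gata6 and Icam2 lie within the mass of transcripts.

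For 2 of the genes the transcript with the most similar pattern was sought, by the distance over the 6 arrays after each transcript was set against its own mean. None of 81685 other transcripts came within 0.5 (log2) of *Adgre4*. The nearest, at a distance of 1.05, was ENSMUST00000023840_at, with values of 13.43, 13.65 and 13.37 on the vehicle arrays and 8.24, 8.27 and 7.81 on the oxLDL arrays. Its difference as deposited was -5.38. Around *Gata6*, 22532 transcripts lay within 0.5, and the nearest, ENSMUST00000149528_at, was at 0.05 with a difference of -0.29. The distance is in absolute log2 units, so these counts follow from the size of each difference and nothing further is read from them.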

How the data were processed

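The platform was the Affymetrix Mouse Exon 1.0 ST array, with 3 vehicle and 3 oxLDL arrays grouped and numbered by the labels. The authors left the probe values without background adjustment, quantile-normalized them and made PLIER summaries (CustomCDF version 15, Ensembl release 65). The deposited table is taken as log2 values from their range, as no base is named. Differences are means of the deposited values, and limma 3.58.1 (R 4.3.3; no covariate, prior proportion 0.1, two-sided; Storey q-values, own implementation) was run across the 40845 transcripts whose mean exceeded the median, to give the share called. It was tested on simulated data. Figures were drawn with matplotlib 3.10.9.

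The members and lists were chosen with earlier results of these data known. The named transcripts are the 5 members and the nearest pattern to *Adgre4* (the largest fall of the 5) and to *Gata6*. The lists of other peritoneal macrophage genes and cell markers were not analysed here, as 0 of 81690 identifiers matched the RefSeq table.

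The methods place both wells of an experiment in 1 pool. Deviations from the group mean correlated at 0.51, 0.67 and 0.58 between same-numbered arrays, so these arrays varied together. The other correlations were -0.53 to -0.04, but centring on the mean of 3 arrays pushes them below 0, and they add nothing. Whether a shared pool or shared processing gave the likeness was not tested. The differences are given within pairs.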

Additional observations from a re-analysis of the deposited data

How the results depend on the processing

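The members were chosen with this contrast known, so their calls here describe the settings and are not evidence about them. *Adgre4*, *Adgre1* and *Csf1r* were called lower in the main fit, as were 2.45% of all tested transcripts, and in 15 of 15 alternatives. The fit with the replicate block and that with a random block each called 1001 transcripts lower and 280 higher, as did the fit without a block. These fits share the same differences, and far more transcripts pass without a fold threshold. Equal counts therefore do not show how the block changed the q-values. The background subtraction moved *Adgre4* to -5.56. Without a fold threshold 12587 of all tested transcripts were lower and 4369 higher, and among the brightest 25% there were 642 lower (of 20423 tested). With each array left out, *Adgre4* ranged from -4.75 to -4.56, *Adgre1* from -1.28 to -1.08, *Csf1r* from -1.26 to -1.12, *Gata6* from -0.39 to -0.15 (without vehicle replicate 3) and *Icam2* from -0.12 to 0.10, and the counts from 906 to 1241 lower and from 278 to 317 higher. The share of higher calls was 21.9% and 33.7% after quantile normalization. Lists of other genes were not run. Signal over background was not assessed, which limits *Adgre4* on the oxLDL arrays and *Icam2*.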
